A study of Mus musculus with 2 samples.

Results

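The canonical histone genes of the mouse were read in single cells of lungs from mice carrying a 4T1 mammary tumour. The set holds every gene whose symbol begins with Hist1h, Hist2h, Hist3h or Hist4, which gave 67 of 32286 annotated features. BALB/c mice had received 4T1 carcinoma cells in the mammary fat pad, and the lungs were taken on day 14 from animals given an S100a4-11 antibody and from animals given IgG antibody. Both groups therefore carried the tumour, and no lung without a tumour was analysed here. Each group had 1 library, and the number of animals behind a library is not stated in the labels. No test between the groups was possible, so both values are given with exact 95% intervals that cover counting error only. Age, dose and sex are not given in the labels.

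Histones are the proteins that DNA winds around in the nucleus. Pairs of the core histones H2A, H2B, H3 and H4 form the nucleosome, and the linker histone H1 binds where DNA enters and leaves it. Most of these genes lie in clusters, have no introns and are transcribed mainly while DNA is copied in S phase; their mRNAs end in a stem-loop bound by the protein SLBP in place of a poly(A) tail. Some members also give polyadenylated mRNA, which lasts in cells that no longer divide. Kits of the type used here prime on poly(A), so an mRNA that ends at the stem-loop is captured poorly and the values below show the captured part of the histone mRNA pool.

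The family members by role were 6 linker histone H1 genes, 18 H2A, 18 H2B, 12 H3 and 13 H4 genes. GENCODE M21, an annotation of build GRCm38, places 54 of them on chromosome 13, 10 on chromosome 3, 2 on chromosome 11 and 1, Hist4h4, on chromosome 6. Over both libraries they held 38899 UMIs (unique molecules counted), of which H1 genes took 44.9%, H4 genes 22.1%, H2A genes 15.6%, H2B genes 12.5% and H3 genes 4.87%. The 19 members with fewer than 20 UMIs include Hist1h4m, Hist1h2bq and Hist1h2aa, at which no UMI was counted. UMIs of a 5' kit count captured molecules and were not divided by transcript length. Of the 67 members, 31 shared at least 50% of their stretches of 50 bases with another member, so the authors' alignment could split or drop their reads and their values are uncertain. On the same strand, Hist1h2be is annotated across Hist1h1e, Hist3h2a overlaps Trim17 and Hist2h2bb overlaps Gm42743. Hist2h2aa1 and Hist2h3c1 both overlap Gm20634 in this way. Reads of such pairs cannot always be told apart. The members described most are Hist1h1b at chr13:21779883-21780625 (minus strand), Hist1h1e at chr13:23620629-23622558 (minus), Hist1h1c at chr13:23738808-23740367 (plus), Hist1h2ae at chr13:23570517-23571220 (minus), Hist1h4d at chr13:23581598-23582735 (plus), Hist1h4i at chr13:22040636-22041362 (minus), Hist2h2ac at chr3:96220361-96220880 (minus) and Hist1h2bc at chr13:23684199-23692908 (plus), all in GRCm38.

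The stem-loop was searched for in the annotated transcripts as 6 paired bases around a loop of 4, and 42 of 67 members held it. Of these, 25 had the same core. The following members are shown because the values below turn on them, with the stem and loop in capitals; Hist2h2ac was the one member with its particular core.
Hist1h2ae: acaaaGGCTCTTTTCAGAGCCattca
Hist1h1e: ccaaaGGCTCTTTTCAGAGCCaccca
Hist1h1c: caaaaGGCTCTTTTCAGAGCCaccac
Hist2h2ac: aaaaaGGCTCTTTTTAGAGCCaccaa
Hist1h4d: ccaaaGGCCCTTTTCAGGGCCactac
Hist1h4i: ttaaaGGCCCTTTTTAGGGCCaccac
The annotated transcript ran on past the loop by 1153 bases in Hist1h1e, 840 in Hist1h1c, 770 in Hist1h4d, 330 in Hist1h4i, 151 in Hist1h2ae and 57 in Hist2h2ac. A poly(A) signal stood near the annotated end of 17 members, among them Hist1h1c and Hist1h4i, and no loop was found in the annotated transcripts of Hist1h1b or Hist1h2bc. Some annotated transcripts are short, at 381 bases in Hist1h2bl and Hist2h2bb, and may stop before a loop or signal. Both counts therefore describe the annotation, and a loop not found may still be in the gene. The 18 members with an annotated transcript of at least 1000 bases held 42.3% of the members' UMIs in cycling cells and 71.1% in non-cycling cells.

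After barcodes with few genes, high mitochondrial content or a doublet call were removed, 11750 cells with 58863966 UMIs were kept in the S100a4-11 library and 13658 cells with 78928829 UMIs in the IgG library, with median depths of 3661 and 4028 UMIs. The libraries shared 266 barcodes. Clustering without the members and without cell cycle genes gave 35 clusters, of which 8 stayed unnamed, and 13 named classes had at least 100 cells in each library. Markers of alveolar epithelium, endothelium and alveolar macrophages led separate clusters, as a lung would give, while a protocol line calls the tissue tumour. Class names rest on marker transcripts, are written with "-like", and follow a naming rule set after the clusters were seen; 8.60% of the S100a4-11 cells and 12.3% of the IgG cells stayed unnamed.

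A cell was called cycling when at least 4 of 11 mitotic and proliferation genes (Mki67, Top2a, Cdk1, Ccnb1, Ccnb2, Ccna2, Birc5, Tpx2, Ube2c, Cenpf and Aurkb) had a UMI. There were 45 such cells in the S100a4-11 library, 0.383% (0.280 to 0.512) of kept cells, and 95 in the IgG library, 0.696% (0.563 to 0.850). The cycling cells were deeper, with medians of 14919 and 14130 UMIs against 3644 and 4005 UMIs in non-cycling cells, and 5 and 4 further cells that met the rule were removed as doublets. Thinned to 2000 UMIs per cell, with 2167 and 2393 shallower cells left out, 23 and 50 cells still met the rule, or 0.240% and 0.444% of those cells.

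Summed over all 67 members, captured histone mRNA was far higher in cycling than in non-cycling cells of both libraries. In the S100a4-11 library the sum was 3251 UMIs per 1000000 UMIs (CPM) in cycling cells and 278.7 CPM in non-cycling cells, a fold of 11.7 (11.2 to 12.2). In the IgG library it was 2721 CPM in cycling cells and 208.6 CPM in non-cycling cells, a fold of 13.04 (12.6 to 13.5). Without 1 unnamed cluster led by Ccr8 the folds were 5.49 (5.12 to 5.89) and 12.7 (12.3 to 13.2), so the fold in the S100a4-11 library rests largely on 8 cells of it. The H2A genes had the highest fold of the families, 22.0 and 24.2, and the H4 genes a low one, 5.28 and 4.83.

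Among linker histones, which compact the chromatin fibre, Hist1h1b separated the states most sharply. It had 449.9 CPM in cycling and 1.497 CPM in non-cycling cells of the S100a4-11 library, a fold of 300.5 (237 to 385). In the IgG library the levels were 492 CPM in cycling and 1.52 CPM in non-cycling cells, a fold of 323 (266 to 395). Its UMIs were found in 51.1% and 51.6% of cycling cells and in 0.658% and 0.678% of non-cycling cells, or 23 of 45 and 49 of 95 cycling cells beside 77 and 92 non-cycling cells; most cells with a UMI of it were therefore outside the cycling rule, at a low level. Hist1h1d had 326 CPM in cycling and 5.63 CPM in non-cycling cells of the S100a4-11 library, and 322 and 4.10 CPM in those of the IgG library. Hist1h1a had 84.1 and 1.94 CPM in cycling and non-cycling cells with the S100a4-11 antibody, and 131 and 1.201 CPM with IgG. Their folds were 57.9 and 78.6 for Hist1h1d and 43.3 and 109 for Hist1h1a, so both lay far above the fold of the summed members.

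Hist1h1e and Hist1h1c were the members with the most UMIs, and neither was limited to cycling cells. Hist1h1e stood at 442 CPM in cycling and 63.0 CPM in non-cycling cells of the S100a4-11 library, a fold of 7.02 (6.25 to 7.85), and at 441 and 44.8 CPM in those of the IgG library, a fold of 9.85 (9.05 to 10.7). Without the Ccr8-led cluster the folds of Hist1h1e were 3.49 and 9.23, and without the 5 cycling cells with the most histone UMIs of each library 3.03 and 7.68. Hist1h1c stood at 156 and 51.2 CPM in cycling and non-cycling cells of the S100a4-11 library, a fold of 3.05 (2.51 to 3.67). In the IgG library it stood at 162 and 37.3 CPM, a fold of 4.34 (3.80 to 4.95). Hist1h1c thus had a clear level in non-cycling cells and a modest excess in cycling ones, and without the Ccr8-led cluster its fold in the S100a4-11 library was 1.65 (1.21 to 2.20).

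Of the H2A genes, whose products form the outer part of the nucleosome with H2B, Hist1h2ae had the highest level in cycling cells of the S100a4-11 library of all members, 515 CPM, against 5.27 CPM in its non-cycling cells, a fold of 97.9 (84.0 to 114). In the IgG library it had 382 CPM in cycling and 3.36 CPM in non-cycling cells, a fold of 114 (98.0 to 132). Hist1h2ap, which shares 93.1% of its 50-base stretches with other members and is therefore uncertain, had 180.2 and 1.98 CPM in cycling and non-cycling cells of the S100a4-11 library and 125 and 0.775 CPM in those of the IgG library. Hist2h2ac had folds close to those of Hist1h1c, with 68.1 and 26.2 CPM in cycling and non-cycling cells of the S100a4-11 library, a fold of 2.60 (1.93 to 3.44), and 52.9 and 17.0 CPM in those of the IgG library, a fold of 3.12 (2.46 to 3.91). Within classes of the IgG library its fold was 6.95 (3.81 to 11.8) in endothelial-like and 3.77 (1.69 to 7.81) in interstitial macrophage-like cells. In alveolar macrophage-like cells it was 2.11 (0.806 to 4.68) in the IgG library. It was 0.547 (0.0136 to 3.20) in those of the S100a4-11 library, from 1 UMI in cycling cells.

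Among H2B genes, Hist2h2bb had 116 CPM in cycling and 6.20 CPM in non-cycling cells of the S100a4-11 library, and 45.6 and 4.62 CPM in those of the IgG library. Hist1h2bc, the H2B gene with the most UMIs, was not higher in cycling cells. It had 8.01 and 13.5 CPM in cycling and non-cycling cells of the S100a4-11 library, a fold of 0.594 (0.217 to 1.30), and 11.2 and 14.2 CPM in those of the IgG library, a fold of 0.790 (0.458 to 1.27). Hist1h2be, whose count cannot be fully separated from that of Hist1h1e, had folds of 2.31 (1.18 to 4.08) and 1.24 (0.676 to 2.11).

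Few UMIs came from H3 genes. Hist1h3e had 110 CPM (82 UMIs) in cycling and 7.62 CPM in non-cycling cells of the S100a4-11 library, and 66.8 CPM (101 UMIs) and 6.43 CPM in those of the IgG library, folds of 14.4 (11.2 to 18.2) and 10.4 (8.30 to 12.9). Hist1h3f had folds of 13.3 (7.92 to 21.2) and 10.3 (6.37 to 16.1). Hist2h3c1 had 1 UMI in cycling cells of the S100a4-11 library and none in those of the IgG library. The H4 genes Hist1h4d and Hist4h4 had folds of 6.96 (5.85 to 8.24) and 4.98 (3.64 to 6.67) in the S100a4-11 library and 6.24 (5.34 to 7.26) and 4.99 (3.82 to 6.41) in the IgG library. The H4 gene Hist1h4i had 13.4 CPM in both cycling and non-cycling cells of the S100a4-11 library, a fold of 0.999 (0.477 to 1.85), and 12.6 and 9.84 CPM in those of the IgG library, a fold of 1.28 (0.764 to 2.01).

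**Figure D1:**
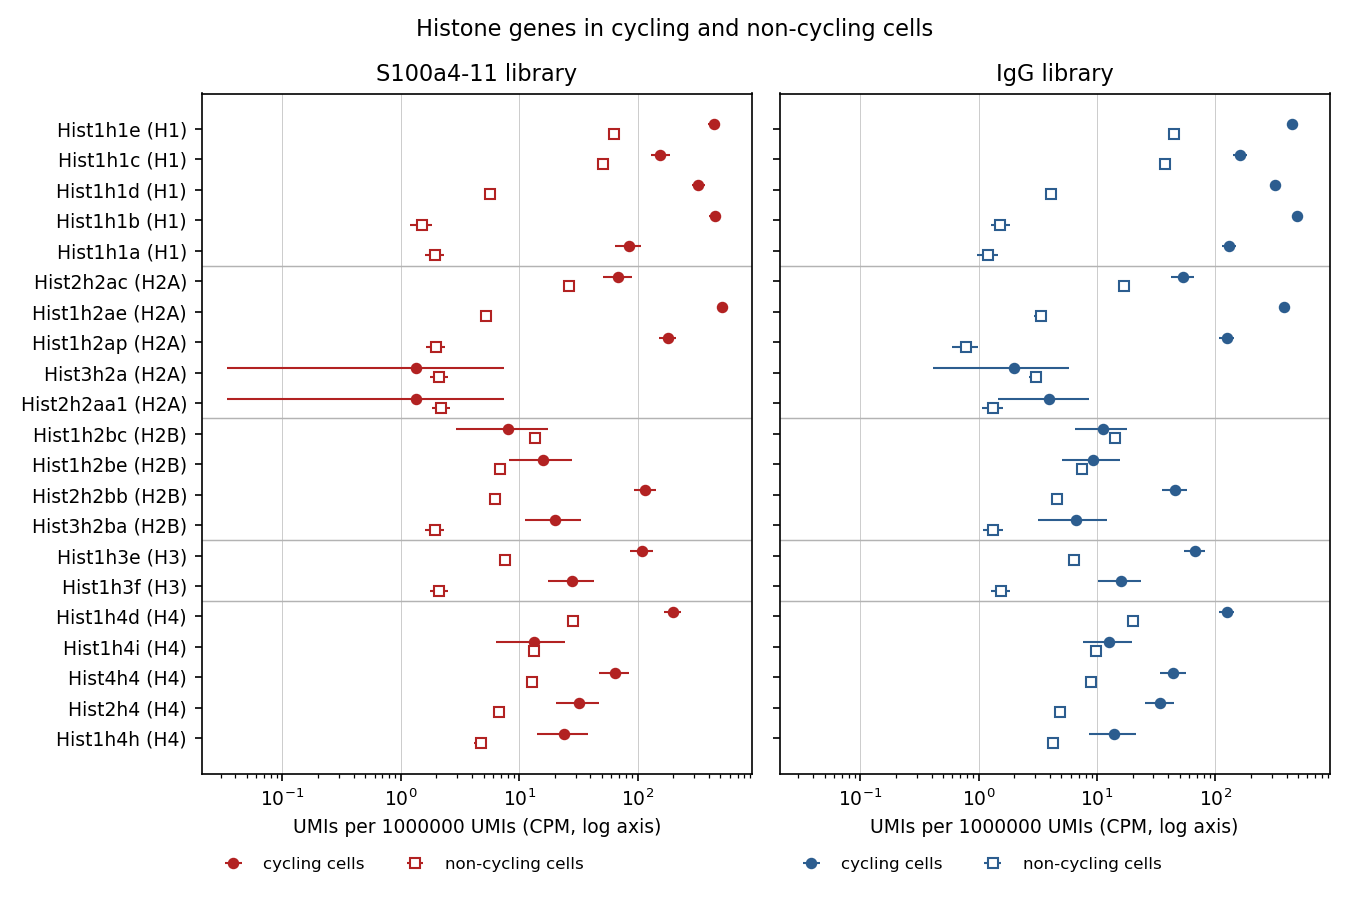
Level (UMIs per 1000000 UMIs, log axis) of the 21 members with at least 200 UMIs in cycling cells (filled) and non-cycling cells (open) of the S100a4-11 library (left) and the IgG library (right), ordered by histone family; bars are exact 95% counting intervals. Hist1h1b and Hist1h2ae lie about 100 times or more apart between the states in each library, while both states overlap for Hist1h4i and Hist1h2bc.

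By the cycling fold, 24 members were at least 4-fold higher in cycling cells of both libraries with at least 20 UMIs there, and are called the replication type. They hold 58.3% of the members' UMIs and 4 of the 6 H1 genes. A group of 5, called here the non-cycling type, had a fold under 2 in both libraries with at least 20 UMIs in the non-cycling cells of each, and comprised Hist1h2bc, Hist1h4i, Hist3h2a, Hist2h2be and Hist2h3c1, with 10.5% of the UMIs. Hist2h3c2 had all of its 37 UMIs in non-cycling cells, 13 in the S100a4-11 library and 24 in the IgG library, and missed that minimum in the S100a4-11 library. Hist3h2a, Hist2h2be and Hist2h3c1 had at most 3 UMIs in cycling cells of either library, so their place is uncertain. Their folds in the S100a4-11 library were 0.631 (0.0158 to 3.58), 1.65 (0.0409 to 9.66) and 1.65 (0.0409 to 9.66). In the IgG library they were 0.651 (0.133 to 1.93), 1.92 (0.388 to 5.82) and 0 (0 to 2.36). The remaining 19 members with at least 20 UMIs met neither rule and held 30.9% of the UMIs. Of these, Hist1h1c, Hist2h2ac, Hist1h2be and Hist1h4h had at least 20 UMIs in cycling cells and missed both folds; the other 15 had fewer there, and 10 of the 15 had folds of at least 4 in both libraries. Since the fold chose these groups, their summed values are descriptions. The replication type summed to 2829 CPM in cycling and 149.6 CPM in non-cycling cells of the S100a4-11 library and to 2393 and 107 CPM in those of the IgG library. The non-cycling type summed to 25.4 and 30.6 CPM in cycling and non-cycling cells of the S100a4-11 library and to 27.8 and 29.2 CPM in those of the IgG library. At the edge of the replication type, Hist2h4 had folds of 4.70 and 7.06 and was inside, while Hist1h4h had folds of 5.08 and 3.26 and was outside. Hist1h1e was inside with all cells, and without the Ccr8-led cluster its fold of 3.49 in the S100a4-11 library was under 4. A poly(A) signal stood at the annotated end of 4 of the 5 non-cycling members and of 4 of the 24 replication members. The median annotated transcript was 1825 bases in the non-cycling type and 622 bases in the replication type. A short annotation may stop before a signal, so these counts are not on equal terms.

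Set against all genes, 30 members had at least 20 UMIs in cycling cells and could be compared; a member could pass this filter through the very cells in which it is high, and 37 members did not pass. The filter therefore partly fixes the following counts, and nothing is read from them: of the 30, 27 were at least 2-fold higher in cycling cells of both libraries, against 8.3% of the 9833 genes compared, and 0 were at least 2-fold lower, against 6.08%. Hist3h2a, Hist2h2be and Hist2h3c1 of the non-cycling type were among those that did not pass.

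The level differed widely from one cycling cell to the next. The median cycling cell had 738 CPM of histone UMIs in the S100a4-11 library and 695 CPM in the IgG library, the highest 16501 and 28264 CPM, and 5 of 45 and 7 of 95 cells had none. At least 1000 CPM were found in 17 of 45 cycling cells (37.8%) of the S100a4-11 library and in 44 of 95 (46.3%) of the IgG library. The 5 cells with the most histone UMIs held 61.2% of those in cycling cells of the S100a4-11 library and 27.6% in the IgG library. Without these 5 cells, and without the 5 highest non-cycling cells, the fold of the summed members was 5.62 (5.253 to 5.997) in the S100a4-11 library and 10.1 (9.75 to 10.6) in the IgG library.

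**Figure D2:**
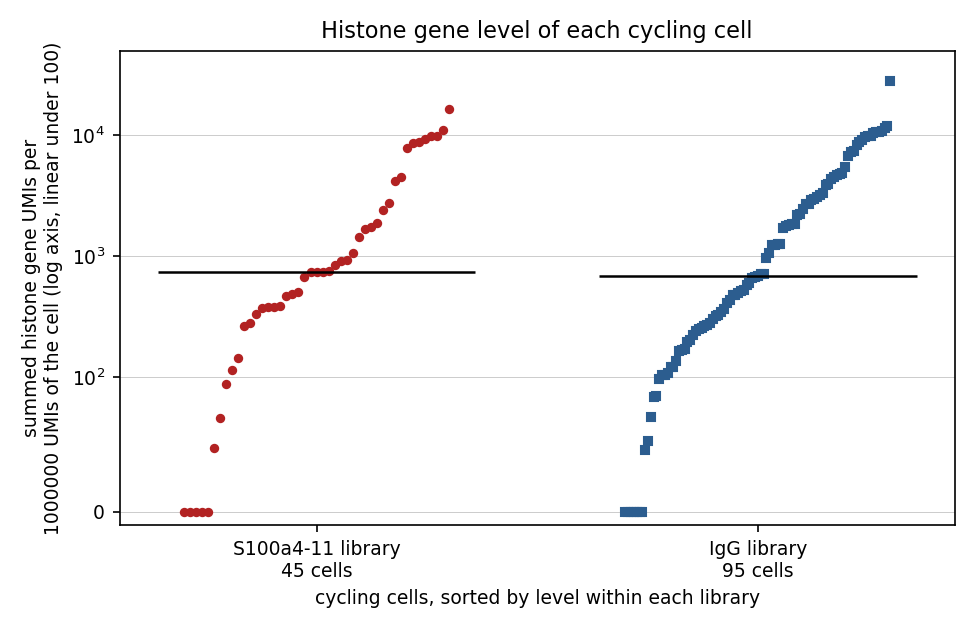
Summed histone UMIs per 1000000 UMIs of the cell (log axis, linear under 100) for each of the 45 cycling cells of the S100a4-11 library (circles) and the 95 of the IgG library (squares), sorted by level; black lines are the medians, 738 and 695 CPM. A minority of cells in each library lies above 1000 CPM, up to 16501 and 28264 CPM.

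One cluster weighed on the S100a4-11 library. An unnamed cluster led by Ccr8, Il2ra, Cxcr6 and Ctla4, which held 178 cells of the S100a4-11 library and 196 of the IgG library, gave 8 and 5 cycling cells. Those cells carried 65.0% of the histone UMIs of all cycling cells in the S100a4-11 library and 7.49% in the IgG library, at 8207 CPM (7808 to 8622) and 3950 CPM (3521 to 4417). Its non-cycling cells had 265 and 227 CPM. Without this cluster Hist1h1b had 212 CPM in cycling cells of the S100a4-11 library and 487 CPM in those of the IgG library, folds over non-cycling cells of 150.3 and 316.

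Within alveolar macrophage-like cells, the class with the most cycling cells, the replication and non-cycling types split in the same way. These cells also took part in forming the types. The replication type summed to 310 CPM in 11 cycling and 26.8 CPM in non-cycling cells of the S100a4-11 library, a fold of 11.6 (8.08 to 16.3), and to 1209 and 28.5 CPM in 31 cycling and the non-cycling cells of the IgG library, a fold of 42.4 (35.6 to 50.8). The non-cycling type was lower in cycling cells, at 6.33 and 58.6 CPM in cycling and non-cycling cells of the S100a4-11 library (1 UMI in cycling cells) and 17.2 and 50.1 CPM in those of the IgG library. Hist1h2bc had 0 UMIs in the cycling and 38.7 CPM in the non-cycling alveolar macrophage-like cells with the S100a4-11 antibody, which allows a fold of up to 0.612, and 9.85 CPM (4 UMIs) and 35.0 CPM with IgG, a fold of 0.281 (0.0759 to 0.731). In the IgG library 13 cycling endothelial-like cells had 4414 CPM of summed members against 198.9 CPM in non-cycling ones, and 13 cycling interstitial macrophage-like cells had 2532 against 132 CPM. The replication type had folds of 34.2 and 34.9 in these classes. The non-cycling type was not lower in their cycling cells, with folds of 1.02 (0.275 to 2.62) and 2.13 (0.959 to 4.29). Hist1h4i had a fold of 3.66 (1.40 to 8.59) in the interstitial macrophage-like cells, from 8 UMIs in cycling ones. No cycling cell was found among 1341 and 862 B cell-like cells.

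The cycling rule rests mainly on genes of G2 and mitosis, so cycling cells were also split by whether UMIs of 34 S phase genes were at least as many as those of 28 other G2 and M phase genes. This held for 9 cycling cells of the S100a4-11 library and 24 of the IgG library. Hist1h1b had 651 CPM (535 to 786) in the S-leaning and 392.0 CPM (343 to 446) in the other cycling cells of the S100a4-11 library, and 696 CPM (614 to 786) and 425 CPM (388 to 465) in those of the IgG library. Hist1h2ae was lower in the S-leaning cells, at 400.4 and 548 CPM in the S100a4-11 library and 317 and 403 CPM in the IgG library, with intervals that overlapped between the states in both libraries. The summed members went opposite ways between the libraries. They had 2743 CPM (2498 to 3006) in the S-leaning and 3397 CPM (3249 to 3550) in the other cycling cells of the S100a4-11 library. In the IgG library they had 3080 CPM (2904 to 3264) and 2604 CPM (2511 to 2699). Hist1h1e and Hist1h1a also changed direction between the libraries. Non-cycling cells with at least 4 S phase genes, 748 and 1049 cells, had no more Hist1h1b than other cells, 1.47 CPM in the S100a4-11 library and 0.995 CPM in the IgG library; these cells were also deep, with medians of 10234 and 12785 UMIs.

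Outside the cycle, lymphocyte classes had the most captured histone mRNA, and alveolar macrophage-like and immature granulocyte-like cells were among the lowest. In non-cycling NK cell-like cells the members summed to 852 CPM (809 to 898) in the S100a4-11 library and 667 CPM (625 to 712) in the IgG library. B cell-like cells followed with 694 and 566 CPM and T cell-like cells with 407 and 399.8 CPM. Nonclassical monocyte-like cells had 273 and 219 CPM, neutrophil-like cells 237 and 186 CPM and endothelial-like cells 233 and 198.9 CPM. Alveolar macrophage-like cells had 144 and 134 CPM, immature granulocyte-like cells 157 and 115 CPM and interstitial macrophage-like cells 210.0 and 132 CPM. The first 3 classes did not overlap one another in their intervals in either library, while many of the lower ones did.

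**Figure D3:**
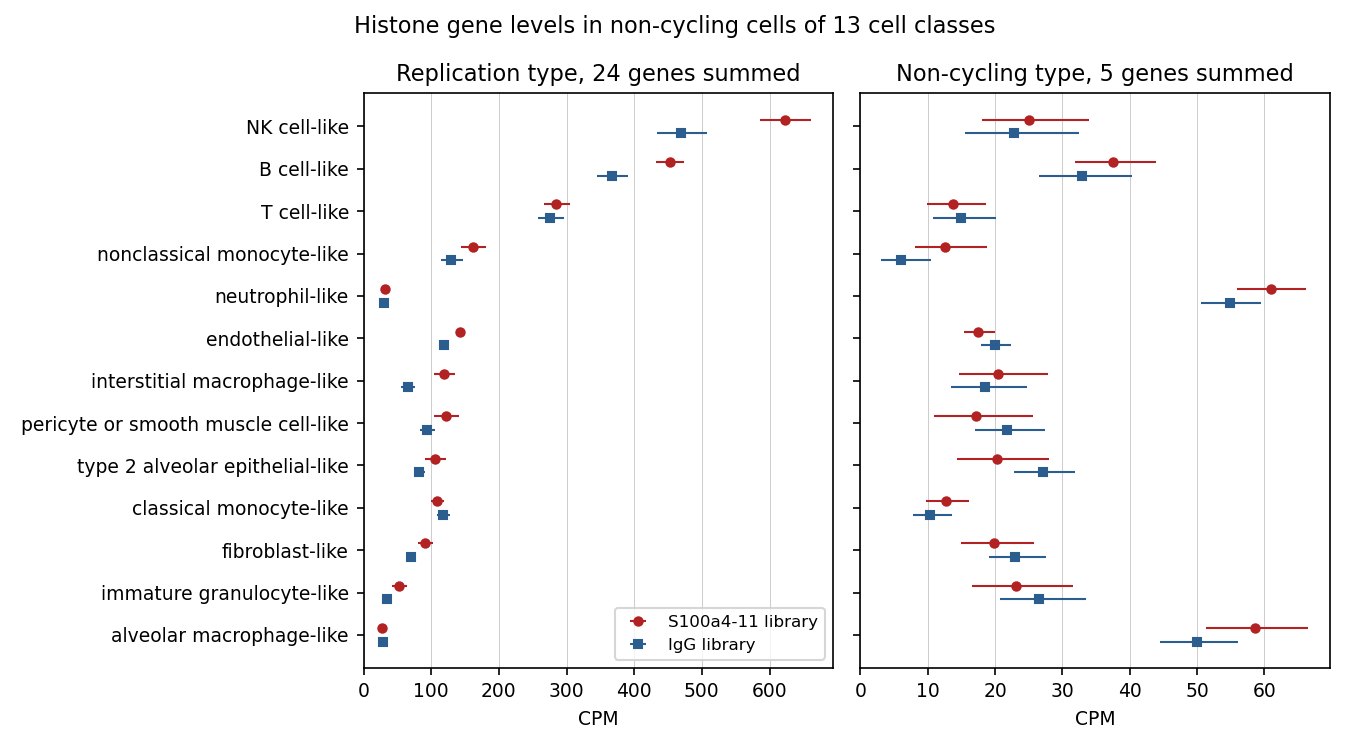
Summed level (CPM) in non-cycling cells of 13 classes for the 24 replication type members (left) and the 5 non-cycling type members (right), in the S100a4-11 library (circles) and the IgG library (squares) with exact 95% counting intervals. NK cell-like cells lead the replication type at 623 and 469.6 CPM, and neutrophil-like cells lead the non-cycling type at 60.9 and 54.9 CPM.

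The linker histone Hist1h1e was the leading member in 9 of the 13 classes in both libraries. It had 340.0 CPM in NK cell-like cells of the S100a4-11 library and 253 CPM in those of the IgG library, and 219.6 and 188 CPM in B cell-like cells. In T cell-like cells it had 80.5 and 82.8 CPM, in alveolar macrophage-like cells 8.37 and 8.51 CPM and in neutrophil-like cells 9.14 and 8.93 CPM. A UMI of Hist1h1e was found in 46.3% and 44.1% of NK cell-like cells (medians of 2595 and 2900 UMIs) and in 5.91% and 5.73% of the deeper alveolar macrophage-like cells (medians of 8312 and 8478 UMIs). Thinned to 1000 UMIs per cell, the shares were 21.8% and 20.1% of NK cell-like cells, with 18 and 7 shallower cells left out, and 0.439% and 0.442% of alveolar macrophage-like cells, with 1 and 2 left out. H1 genes together made up 62.5% and 64.3% of histone UMIs in NK cell-like cells and 27.1% and 23.8% in neutrophil-like cells.

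Hist1h1c was likewise highest in these lymphocytes: B cell-like cells had 148 and 125 CPM and NK cell-like ones 141 and 131 CPM, with overlapping intervals. It was 53.4 and 33.6 CPM in neutrophil-like cells, and its level in alveolar type 2-like epithelium was 20.8 and 19.9 CPM. Hist1h4d was also highest in NK cell-like cells, with 66.3 and 55.4 CPM, and stood at 2.72 and 4.33 CPM in neutrophil-like cells. Hist1h4d did not clearly follow the lymphocyte order further in the IgG library. Endothelial-like cells there, at 33.1 CPM, stood above B cell-like cells, with intervals that overlapped.

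Hist1h1e did not lead the granulocyte and macrophage classes. Hist1h1c led interstitial macrophage-like cells of both libraries and alveolar macrophage-like cells of the IgG library. Hist1h2bc led alveolar macrophage-like cells of the S100a4-11 library. Hist2h2ac was the leading member in neutrophil-like cells, with 64.6 CPM (59.5 to 70.1) in the S100a4-11 library and 43.2 CPM (39.4 to 47.3) in the IgG library, and in immature granulocyte-like cells, with 46.4 and 29.5 CPM. Its lowest level was in alveolar macrophage-like cells, 11.6 and 8.18 CPM. Hist1h2bc was highest in alveolar macrophage-like cells, at 38.7 CPM (32.9 to 45.2) and 35.0 CPM (30.5 to 40.1), followed by neutrophil-like cells at 28.2 and 26.4 CPM, and reached 1.31 and 1.74 CPM in T cell-like cells. Hist1h4i was highest in neutrophil-like cells at 32.6 and 28.2 CPM. Neither the order of Hist2h2ac nor that of Hist1h2bc followed the order of Hist1h1e.

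**Figure D4:**
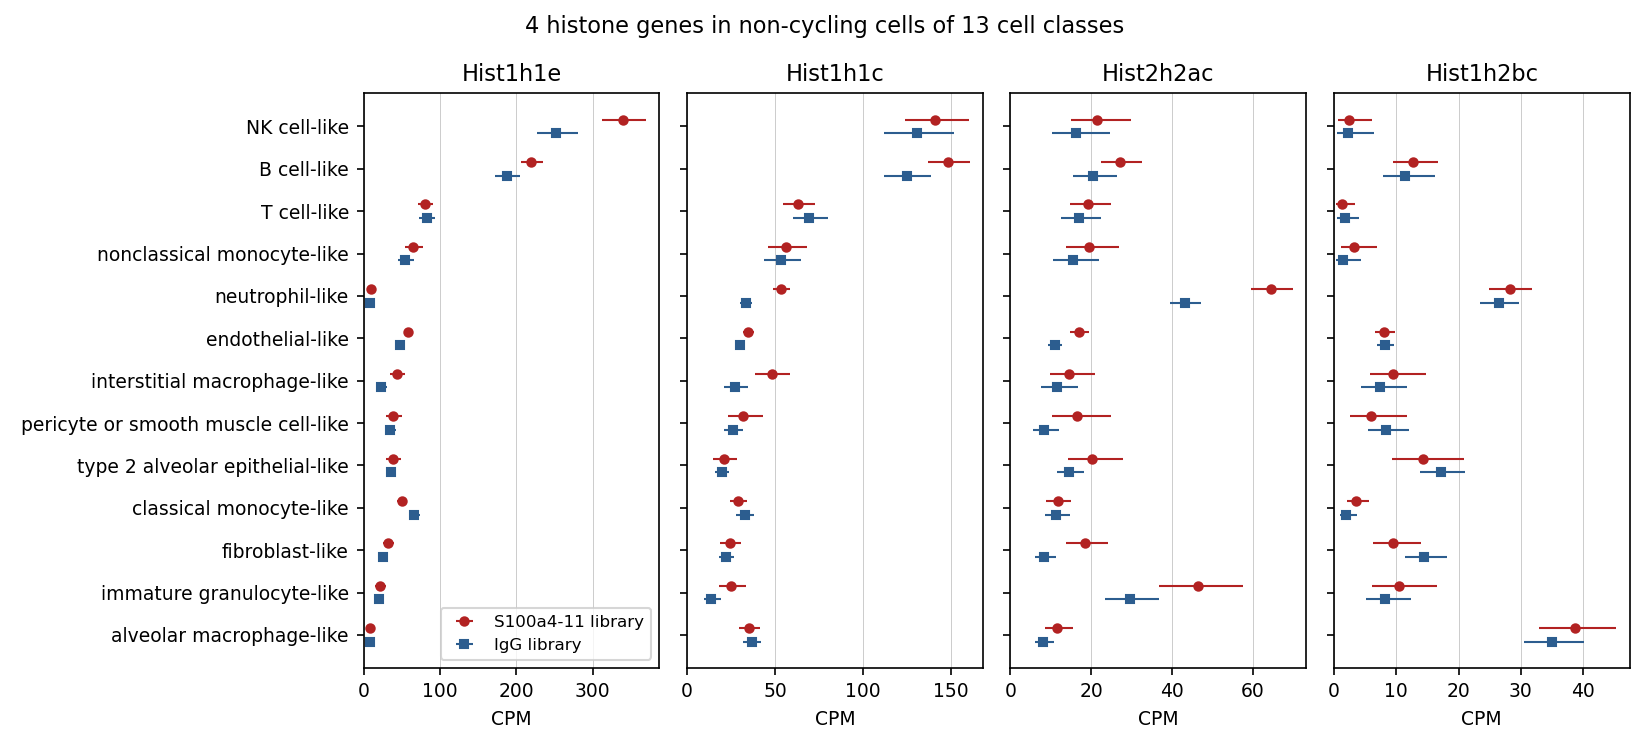
Level (CPM) of Hist1h1e, Hist1h1c, Hist2h2ac and Hist1h2bc in non-cycling cells of 13 classes in the S100a4-11 library (circles) and the IgG library (squares), with exact 95% counting intervals. Hist1h1e peaks in NK cell-like cells (340.0 and 253 CPM), Hist2h2ac in neutrophil-like cells (64.6 and 43.2 CPM) and Hist1h2bc in alveolar macrophage-like cells (38.7 and 35.0 CPM).

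Many H2A and H2B genes are arranged head to head and share the stretch between their start sites. Among 13 neighbouring pairs with starts less than 1000 bases apart on opposite strands, the partners were often unequal. Hist1h2bc had 1909 UMIs and its partner Hist1h2ac, 251 bases away, 80 UMIs. Hist2h2ac had 2967 UMIs and its partner Hist2h2be, 239 bases away, 131 UMIs, and Hist1h2ae had 1529 UMIs against 68 UMIs of Hist1h2bg at 176 bases. Hist1h2bl and Hist1h2ai, at 279 bases, were closer to each other with 95 and 71 UMIs. The unequal pairs also differ in annotated length and in 50-base stretches shared with other members. Hist1h2bc has 1156 bases and 29.4% shared, Hist1h2ac 2482 bases and 11.6%. Hist2h2ac has 520 bases and 37.4% shared, Hist2h2be 2620 bases and 0%. Hist1h2ae has 704 bases and 43.2% shared, Hist1h2bg 618 bases and 49.7%. The part of these differences in the UMIs was not tested.

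Promoters of 62 of the 67 members were found in a RefSeq table of build GRCm38.p6, each from 250 bases before to 50 after the start. Motifs were searched on both strands in the 250 bases before the start: TATAAA was in 29 of 62 members (46.8%) and 12.4% of all 32851 promoters, CCAAT in 51 (82.3%) and 33.9% of all, the octamer ATTTGCAT in 13 (20.97%) and 1.60% of all, and AAACACA in 9 (14.5%) and 6.25% of all. The octamer was in 7 of 18 H2A and 6 of 16 H2B promoters and in none of the H1, H3 or H4 promoters, and AAACACA was in 5 of 6 H1 promoters. Head-to-head partners share much of the searched stretch, so the same match can count for both, and these counts are not of separate stretches. The 150 bases before the start are shown, with matches on either strand in capitals, for an H1 gene at a high level mostly in cycling cells, an H1 gene present in non-cycling cells, an H2A gene mostly in cycling cells and an H2A gene present in non-cycling cells.
Hist1h1b, chr13:21780626-21780775, minus strand: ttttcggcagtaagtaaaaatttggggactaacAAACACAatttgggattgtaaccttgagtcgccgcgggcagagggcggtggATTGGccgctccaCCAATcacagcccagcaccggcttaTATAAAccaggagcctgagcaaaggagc
Hist1h1c, chr13:23738657-23738806, plus strand: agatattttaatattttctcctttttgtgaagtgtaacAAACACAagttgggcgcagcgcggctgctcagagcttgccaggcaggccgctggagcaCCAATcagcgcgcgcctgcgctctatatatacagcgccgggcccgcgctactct
Hist1h2ae, chr13:23571221-23571370, minus strand: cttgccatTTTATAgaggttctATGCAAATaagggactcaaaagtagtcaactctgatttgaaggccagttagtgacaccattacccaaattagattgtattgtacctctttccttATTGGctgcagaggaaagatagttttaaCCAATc
Hist2h2ac, chr3:96220881-96221030, minus strand: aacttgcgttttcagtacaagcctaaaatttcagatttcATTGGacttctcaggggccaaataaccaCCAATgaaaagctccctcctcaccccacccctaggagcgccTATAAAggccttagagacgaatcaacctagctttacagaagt
Both H1 stretches hold AAACACA and CCAAT, and both H2A stretches hold CCAAT on each strand. TATAAA is in 3 of these stretches, and the octamer in that of Hist1h2ae. The 250 bases searched for Hist2h2ac also hold 1 octamer, which lies outside its printed stretch.

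Between the libraries, the summed members were modestly higher with the S100a4-11 antibody. Over all kept cells they stood at 316.5 CPM (312 to 321) in the S100a4-11 library and 257 CPM (253 to 260.3) in the IgG library, a ratio of 1.23 (1.21 to 1.26). In non-cycling cells the values were 278.7 and 208.6 CPM, a ratio of 1.34 (1.31 to 1.37). The classes in which the members are highest, B cell-like and then NK cell-like, made up 11.4% and 4.90% of the cells of the S100a4-11 library and 6.31% and 3.14% of those of the IgG library. With every cluster of non-cycling cells weighted as in the IgG library, the values were 247.5 and 208.6 CPM, a ratio of 1.19. The ratio of Hist1h1e in non-cycling cells was 1.41 with each library's own cell mix and 1.17 with the IgG mix, and that of Hist2h2ac 1.54 and 1.499.

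Within classes, the sum was higher in the S100a4-11 library in 12 of 13, with an interval above 1 in 10. The ratio was largest in interstitial macrophage-like cells, at 210.0 and 132 CPM (1.59, 1.37 to 1.84), and lowest in classical monocyte-like cells, at 172 and 179.7 CPM (0.957, 0.871 to 1.05). The sum of the replication type had a ratio of 1.82 (1.48 to 2.24) in interstitial macrophage-like cells and 1.06 (0.901 to 1.24) in neutrophil-like cells. The sum of the non-cycling type had an interval above 1 in 1 of 13 classes.

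Among single members, a difference counted as called when it was at least 1.5-fold with an interval excluding 1 and at least 50 UMIs in 1 library. A member could pass this filter through the library in which it is high, as Hist1h2bl and Hist1h2af did. The filter therefore partly fixes the counts of calls given here, within classes and in cycling cells, and they are descriptions only. Over all kept cells 6 of 30 members tested were called higher (Hist2h2ac, Hist2h2aa1, Hist3h2ba, Hist1h2bl, Hist1h4c and Hist1h4a), against 2.42% of the 15944 genes tested, and 2 were lower (Hist1h1b and Hist1h2af), against 8.05%. The median log2 ratio was 0.38 over these members and -0.05 over all genes tested. Hist2h2ac had 26.7 CPM (25.4 to 28.1) in the S100a4-11 library and 17.7 CPM (16.8 to 18.6) in the IgG library, a ratio of 1.51 (1.41 to 1.63). The other 5 called higher were scarce, from 0.900 CPM for Hist1h2bl (0.532 CPM with IgG) to 2.18 CPM for Hist2h2aa1 (1.37 CPM with IgG), with ratios of 1.52 for Hist3h2ba (2.18 and 1.43 CPM), 1.59 for Hist2h2aa1, 1.61 for Hist1h4c (1.55 and 0.963 CPM), 1.69 for Hist1h2bl and 1.82 for Hist1h4a (1.16 and 0.634 CPM). Hist1h2af had 0.272 CPM (16 UMIs) and 0.697 CPM (55 UMIs), of which 14 and 44 UMIs were in cycling cells. Hist1h1b had 7.20 and 10.9 CPM, and its ratio of 0.660 (0.586 to 0.742) stood beside a ratio in non-cycling cells of 0.982 with each library's own cell mix and 0.668 with the IgG mix, and the smaller share of cycling cells in the S100a4-11 library. In non-cycling cells 7 of 26 members were called higher (2.53% of genes), namely Hist2h2ac, Hist2h2aa1, Hist1h2ap, Hist1h2ae, Hist1h4c, Hist1h4a and Hist1h1a, and none of the members was called lower. With the IgG cluster mix 5 of these 7 ratios were under 1.5. They were 1.499 for Hist2h2ac, 1.49 for Hist1h4c, 1.43 for Hist1h4a, 1.201 for Hist1h1a and 1.15 for Hist1h2ae. The other 2 were 2.02 for Hist1h2ap and 1.72 for Hist2h2aa1. Both are uncertain, since these members share 93.1% and 89.2% of their 50-base stretches with other members. Hist2h2aa1 also overlaps Gm20634 on the same strand. Hist1h2bl, called higher over all kept cells, shares 82.8%.

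Hist2h2ac was higher in the S100a4-11 library in all 13 classes, with ratios of 1.03 to 2.22 and an interval above 1 in 5. It was called higher in endothelial-like cells (17.0 and 11.0 CPM, ratio 1.55, 1.27 to 1.90; 0.832% of genes called higher there), fibroblast-like cells (18.4 and 8.31 CPM, 2.22, 1.45 to 3.40; 1.12%) and immature granulocyte-like cells (46.4 and 29.5 CPM, 1.57, 1.14 to 2.17; 3.72%). In neutrophil-like cells its ratio of 1.496 (1.32 to 1.69) fell just short of the 1.5-fold. Gm44492 overlaps Hist2h2ac on the other strand.

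**Figure D5:**
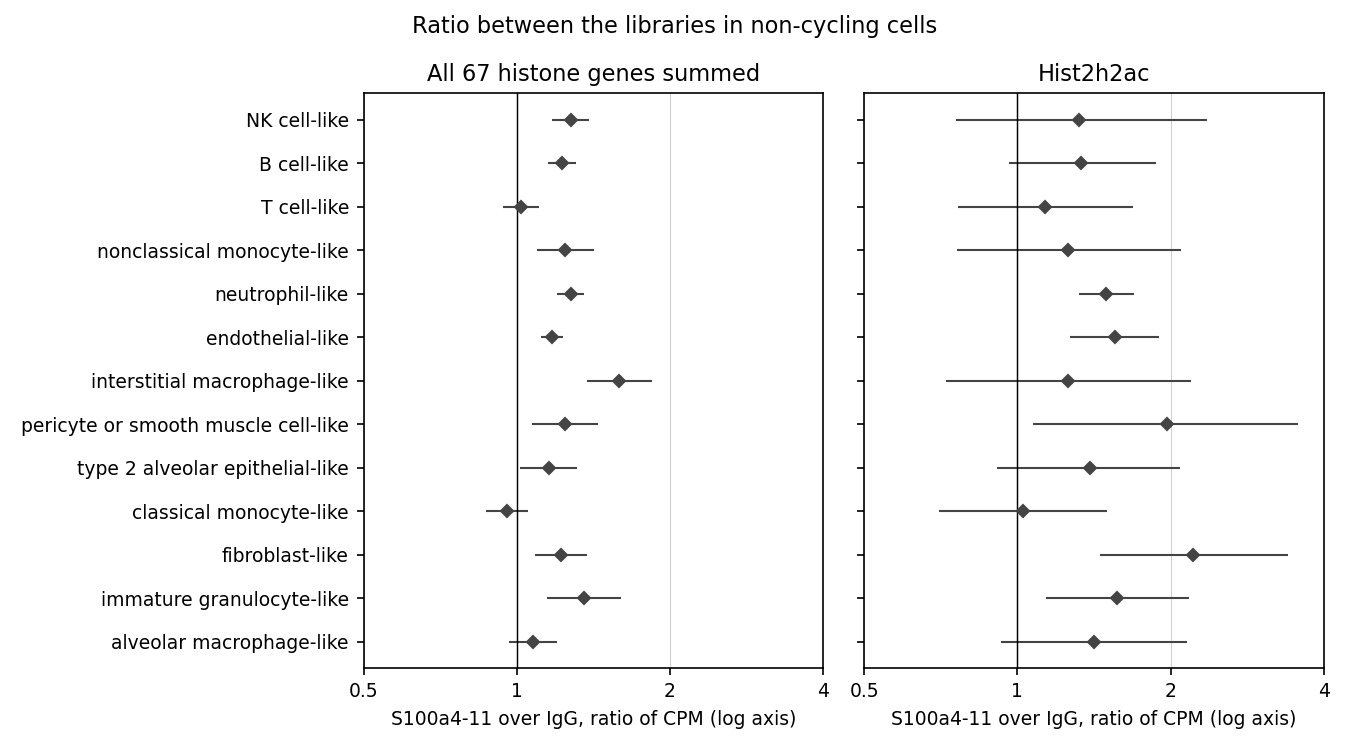
Ratio of CPM in the S100a4-11 library over the IgG library (log axis) in non-cycling cells of 13 classes for all 67 members summed (left) and Hist2h2ac (right), with exact 95% counting intervals. The sum lies above 1 in 12 of 13 classes and Hist2h2ac in 13 of 13, and the intervals leave out the spread between animals, which 1 library per group does not show.

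Hist1h1c was called higher in neutrophil-like cells, with 53.4 CPM (48.8 to 58.4) in the S100a4-11 library and 33.6 CPM (30.2 to 37.2) in the IgG library, a ratio of 1.59 (1.39 to 1.83), where 2.29% of genes were called higher. In the 2 largest neutrophil-like clusters the ratio was 1.51 (1.26 to 1.80) and 1.77 (1.41 to 2.24). In the remaining one, with 124 and 134 cells, it was 1.09 (0.553 to 2.19). In interstitial macrophage-like cells Hist1h1c had 48.0 and 27.2 CPM (1.77, 1.28 to 2.46) and Hist1h1e 44.0 and 23.5 CPM (1.88, 1.33 to 2.67), against 2.81% of genes called higher. In classical monocyte-like cells Hist1h1e was at 50.04 and 65.9 CPM, a ratio of 0.760 (0.642 to 0.898) that did not reach the 1.5-fold.

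Other calls within classes were scattered. In B cell-like cells Hist1h4d (47.4 and 28.3 CPM) and Hist2h2bb (17.1 and 10.0 CPM) were called higher, against 1.18% of genes. In T cell-like cells Hist2h2bb (19.97 and 10.8 CPM) was higher, against 1.56%, and Hist1h1d (11.8 and 19.1 CPM; 0.616, 0.393 to 0.955) lower, against 1.81%. Hist4h4 was higher in NK cell-like cells (41.2 and 22.9 CPM; 1.66% of genes), Hist1h4i in alveolar macrophage-like cells (15.3 and 9.18 CPM; 0.71%) and Hist1h4d in fibroblast-like cells (24.4 and 13.5 CPM) and in alveolar type 2-like epithelium (28.0 and 15.8 CPM; 1.59%). Hist3h2a, with 45 and 92 UMIs, was called lower in endothelial-like cells at 3.42 and 5.63 CPM, against 1.81% of genes.

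In cycling cells the summed members had 3251 CPM in the S100a4-11 library and 2721 CPM in the IgG library, a ratio of 1.195 (1.14 to 1.26). Of 14 members tested, 3 were called higher (Hist2h2bb, Hist1h3e and Hist1h4d), against 4.42% of 5450 genes, and Hist1h1a was called lower, against 16.9%. Hist2h2bb had 116 and 45.6 CPM, a ratio of 2.55 (1.84 to 3.54), and 40.2% of its UMIs in the S100a4-11 library came from 1 cell. Without the unnamed Ccr8-led cluster the direction turned: the sum was 1532 CPM in the S100a4-11 library and 2654 CPM in the IgG library, a ratio of 0.577 (0.535 to 0.622). The ratios were then 0.873 (0.512 to 1.44) for Hist2h2bb, 0.785 (0.495 to 1.21) for Hist1h3e and 0.987 (0.734 to 1.32) for Hist1h4d, and Hist1h1a was at 25.2 and 130 CPM (0.193, 0.104 to 0.332). Without the 5 highest cells of each library the ratio of the sum was 0.738 (0.685 to 0.794).

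Genes that work with the members were read from lists of the cell cycle, histone variants and histone handling. All 34 S phase genes and all 28 other G2 and M phase genes were at least 2-fold higher in cycling cells of both libraries, against 8.3% of all genes compared. The cycling rule itself uses genes of G2 and mitosis. The filter of at least 20 UMIs in cycling cells also partly fixes this and the following counts of genes higher there. These counts are descriptions only. Of 10 histone variants compared, which replace canonical histones outside S phase, 5 were higher. Among those with the most UMIs, H2afz, the H2A.Z gene, had 2392 and 489 CPM in cycling and non-cycling cells of the S100a4-11 library and 2353 and 440.0 CPM in those of the IgG library, while H3f3a, an H3.3 gene, had 1077 and 1353 CPM and 1149 and 1248 CPM. Of 18 chaperone and acetylation genes, which carry new histones to DNA, 9 were higher, among them Nap1l1 with folds of 2.12 and 2.49. Of 13 genes of histone transcription and mRNA processing 2 were higher, Slbp, whose product binds the stem-loop (folds 2.99 and 3.29), and Eri1, an exonuclease that trims it (3.71 and 3.04). Eri1 was named after its values were seen. In none of the variant, chaperone and processing lists was a gene called between the libraries over all kept cells, where 2.42% of all genes tested were called higher and 8.05% lower. Of the cell cycle lists, 1 of 33 S phase genes and 5 of 27 G2 and M phase genes tested were called lower there and 0 higher.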

How the data were processed

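The deposited files hold raw UMI counts per gene and cell barcode, made by the authors with Cell Ranger 7.1.0 on mm10, per the submitters' processing notes. Per the labels' protocols the libraries came from a 10x 5' kit and were sequenced on DNBseq; further settings are not given in the sources used here. Barcodes with under 200 genes (101 in the S100a4-11 library and 67 in the IgG library), over 15% mitochondrial UMIs (46 and 66) or a Scrublet doublet call (615 and 627, 4.97% and 4.39%) were left out. Cells were clustered with Scanpy 1.11.5 (2000 variable genes, 30 components, 15 neighbours, Leiden resolution 1) without the members, cell cycle, mitochondrial, ribosomal and haemoglobin genes, and named where at least 3 listed markers were found; the rule that turns markers into names was set after the clusters were seen. UMIs were summed per library and class and given per 1000000 UMIs, with exact Poisson intervals for levels and exact conditional binomial intervals (SciPy 1.17.1) for ratios; both, at 95%, cover counting error only. The share of cycling cells has an exact binomial interval. The code was tested on simulated data.

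Genes were named by rule: the 3 members of each family with most UMIs, the non-cycling type members and members past the library threshold, and for other lists those with most UMIs; exceptions are stated. The members and lists were chosen with earlier results of these data known. Alternatives covered the cycling rule, thinning, weighting, scaling, clustering and leaving out cells or clusters.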

Additional observations from a re-analysis of the deposited data

How the results depend on the processing

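Of 111 alternatives over 13 results, 65 counted as the same and 46 as moved. The same meant within the counting interval, or within 1.5-fold for the counts of members by type. Some alternatives could not move a result: the ratio over all cells does not use the cycling rule. The library ratio of the sum in cycling cells, 1.195, turned below 1 under 3 alternatives, in 1 of them past the 1.5-fold (0.577). No paired analysis was possible because each group had 1 library. The cycling fold of the summed members was 9.03 in the S100a4-11 library and 11.9 in the IgG library with at least 3 of the 11 genes, 13.3 and 13.95 with at least 6, 13.2 and 16.03 after thinning, 7.69 and 11.2 with every cell weighing the same, and 5.62 and 10.1 without the 5 cells with most histone UMIs. It was 13 and 15.01 without the non-cycling type, 13.02 and 13.9 without Hist1h1e, 12.96 and 14.9 with non-cycling cells in the cluster mix of cycling cells, 13.9 and 14.9 without alveolar macrophage-like cells, and 5.49 in the S100a4-11 library without the Ccr8-led cluster. The last 3 were chosen after seeing the data.

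The Hist1h1c fold in the S100a4-11 library was 2.42 with at least 3 genes, 2.03 after thinning, 2.12 with equal weights, 1.27 (0.900 to 1.74) without its 5 highest cells and 1.65 without the Ccr8-led cluster; in the IgG library it was 5.15 after thinning and 3.22 without 5 cells. The share of cycling cells after thinning was 0.240% and 0.444%. The library ratio of the sum over all cells was 1.27 with equal weights, 1.27 with median-of-ratios and with TMM scaling, 1.203 without the 5 highest cells and 1.19 in non-cycling cells with the IgG cluster mix. In cycling cells it was 1.02 with at least 3 genes, 1.27 with at least 6, 1.095 after thinning, 1.28 with either scaling, 1.26 without alveolar macrophage-like cells, and below 1 with equal weights (0.909), without 5 cells (0.738) and without the Ccr8-led cluster (0.577); apart from those that leave out cells, the cause was not tested. NK cell-like cells of the IgG library had 609.3 CPM at Leiden resolution 0.5. The replication type had 43 members with no UMI minimum, and the non-cycling type 3 with folds under 1.5 and 8 with no minimum. The Hist1h1c ratio in neutrophil-like cells was 1.504 to 1.69 under the alternatives run.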
